A study of Mus with 8 samples.

Results

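The pregnane X receptor PXR (Nr1i2) and the constitutive androstane receptor CAR (Nr1i3) were followed in mouse liver RNA together with the P450 reductase Por and 7 cytochrome P450 genes of the Cyp3a, Cyp2a and Cyp2b families, Cyp3a11, Cyp3a13, Cyp3a25, Cyp2a4, Cyp2a5, Cyp2b9 and Cyp2b10. The 10 genes were taken by name from a table of 54532 genes, and each name matched 1 row. Both groups of mice had colitis induced with 2.5% dextran sulfate sodium (DSS), an oral polysaccharide that injures the colonic epithelium, which was stopped on day 6. The diet-alcohol group (labelled DSSHA, libraries 35, 45, 65 and 71) was then given a high-fat feed with alcohol. The DSS group (libraries 15, 48, 49 and 50) is labelled with DSS alone; the design text names a purified high-fat feed as the other regimen, without saying outright that this group received it. Strain, age and sex of the mice are not in the labels. The study asked how alcohol and a high-fat diet act together on liver injury that follows gut inflammation. Diet and alcohol were given together, and mice without DSS were not analysed here. The labels do not say that each library is a separate mouse, and p-values here speak of the spread among libraries, which may be technical.

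PXR and CAR are nuclear receptors of the hepatocyte that sense drugs, steroids and bile acids, bind DNA as partners of the retinoid X receptor, and switch on genes that oxidise, conjugate and export such compounds. In mouse liver Cyp3a11 is the usual readout of PXR and Cyp2b10 that of CAR, although each receptor can act on the targets of the other. The microsomal P450 enzymes depend on Por, which hands them electrons from NADPH.

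Of the 10 genes, 9 had enough counts to test, and 4 passed the test between the groups. In the diet-alcohol group Cyp3a11 was 6.25-fold lower, Cyp3a25 was 2.77-fold lower and Cyp2a4 was nearly undetected, while Cyp2b9 rose by 3.91 on the log2 scale (threshold of 0.05 on the adjusted p of edgeR's quasi-likelihood test). Cyp2b10 had no count in any DSS library and 7 to 53 counts in each diet-alcohol library. The receptors themselves, Por, Cyp3a13 and Cyp2a5 did not pass. Across all 11729 tested genes 1.26% passed, 0.588% as higher and 0.674% as lower, where the 9 genes had 1 higher and 3 lower. The groups did not overlap in 6 of the 10 genes, or in 5 of the 9 tested, against 8.77% of all tested genes (4.14% with the diet-alcohol libraries above and 4.63% with them below). The calls depended on single libraries: none of the 9 genes passed without diet-alcohol library 45 (7 had an unadjusted p under 0.05), and between 1 and 3 passed without each of the other 7 libraries. Over all tested genes 0.694% passed without library 45, and 0.482 to 2.55% without each of the other 7. None passed either with the mitochondrial share of counts as a covariate (6 had an unadjusted p under 0.05, and edgeR adjusted p was up to 0.25 for the 4 genes). In that fit 0.469% of all genes passed. Counts at an unadjusted p under 0.05, here and below, stand without the share of all genes at that cutoff. No excess is read from them. With limma-voom 1 of the 4 passed, Cyp3a11 (1.03% of all genes). With DESeq2 on the same 11729 genes all 4 passed, with Cyp3a13 also past the threshold (4.13% of all genes). Without the filter on low counts DESeq2 passed the 4 and Cyp2b10, and not Cyp3a13 (2.08% of all genes). Without that filter edgeR passed Cyp3a11, Cyp3a25, Cyp2a4 and Cyp2b10, and neither Cyp2b9 nor Cyp3a13 (1.2% of all genes).

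**Figure D1:**
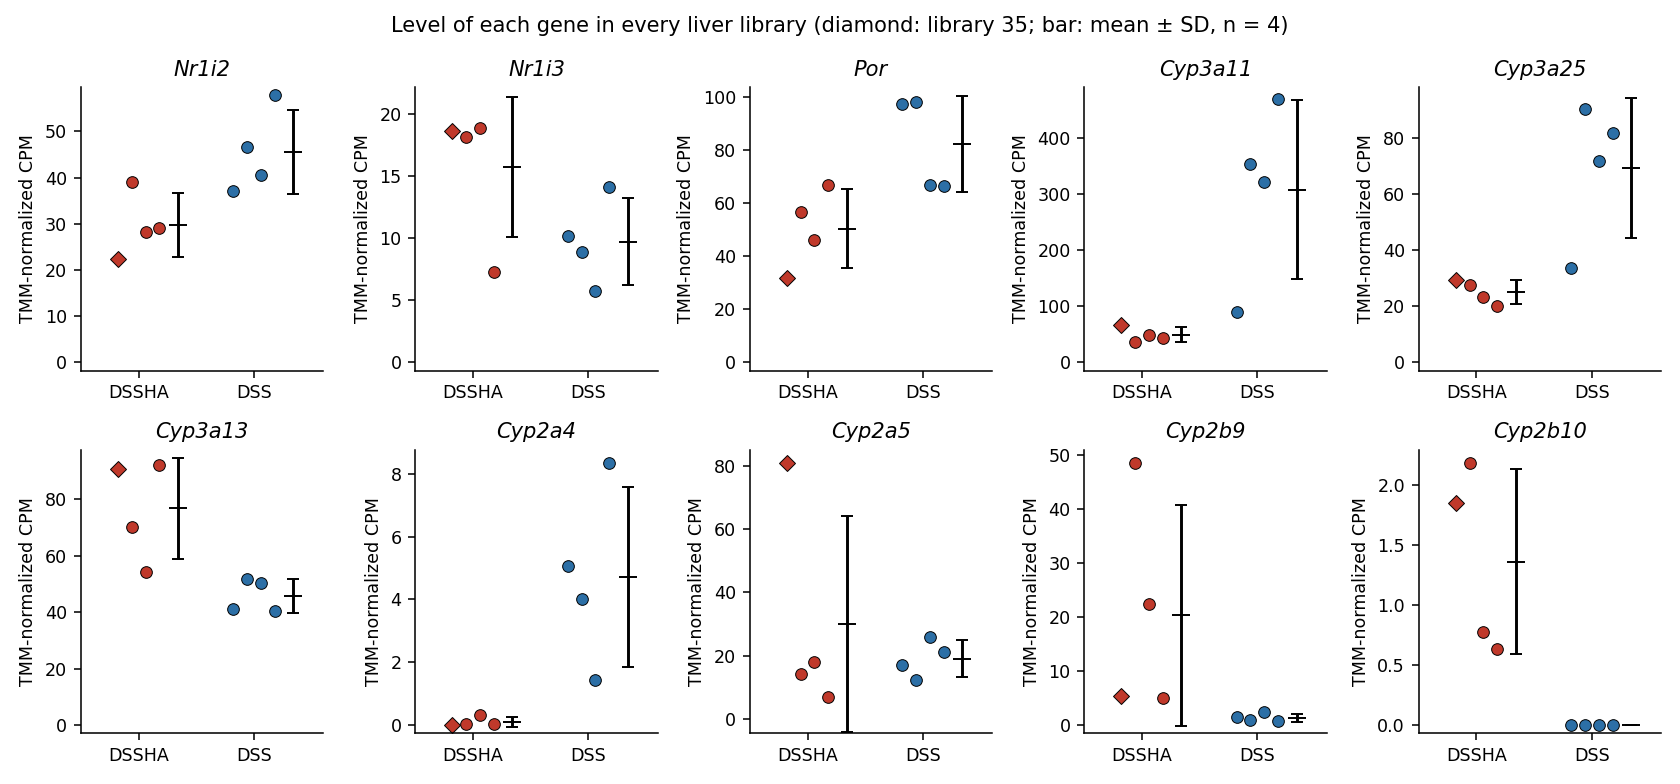
Level of each of the 10 genes in every library, as TMM-normalized CPM (counts scaled to library size; linear axes that start at or just below 0). Each point is 1 library, with the diet-alcohol group (DSSHA) left of the DSS group, a diamond for library 35, and bars for mean ± SD (n = 4 each). Cyp3a11, Cyp3a25 and Cyp2a4 lie lower and Cyp3a13, Cyp2b9 and Cyp2b10 higher in every diet-alcohol library than in any DSS library.

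Total counts ran from 12502300 to 16967839 per library and those of nuclear genes from 2722757 to 10947612. Mitochondrially encoded transcripts took 30.2 to 73.0% of the counts in the diet-alcohol group and 55.8 to 79.1% in the DSS group (exact two-sided permutation p = 0.143, n = 4 each). Library 35 of the diet-alcohol group stood apart, where 784 genes had between 1 and 9 counts; each of the other 7 libraries had 4319 to 4987 such genes. As a check of the tissue, the 8 hepatocyte markers were all detected, and their summed level was 27571 to 38661 CPM in diet-alcohol libraries and 43485 to 68519 CPM in DSS libraries, without overlap. Alb, the albumin gene, made up most of that sum, at 18457 ± 3871 CPM in diet-alcohol livers and 42304 ± 8921 CPM in DSS livers (log2 fold change -1.20, edgeR adjusted p = 0.115). Fga, a fibrinogen gene, stood the other way, with 6063 ± 2272 CPM in diet-alcohol livers and 2814 ± 488 CPM in DSS livers, without overlap (log2 fold change 1.11, edgeR adjusted p = 0.14). The median log2 fold change of the 8 was -0.65, with 6 negative, 0 of 8 past the edgeR test, 3 at an unadjusted p under 0.05, 2 past DESeq2 and 0 past limma-voom. Markers of neutrophils had a summed level of 29.0 to 59.4 CPM in diet-alcohol livers and 3.95 to 14.5 CPM in DSS livers, and 3 of 4 tested rose (S100a8, S100a9 and Retnlg, which all lay lower in every DSS library). Retnlg had 9 counts over the DSS group and entered the test through its diet-alcohol counts. Kupffer cell markers summed to 279 to 594 CPM in diet-alcohol livers and 161 to 259 CPM in DSS livers, and 1 of 6 rose, Marco, a macrophage scavenger receptor. Much of that gap came from Marco, at 156 ± 165 CPM in diet-alcohol livers and 8.99 ± 2.78 CPM in DSS livers. The other 5 did not pass. Of the 6, 5 had positive values, and Clec4f had a log2 fold change of -0.07 (74.3 CPM in diet-alcohol livers and 77.6 CPM in DSS livers). The Marco call was lost without diet-alcohol 35 or DSS 48 or 49 (edgeR adjusted p up to 0.061), that of S100a9 without DSS 48, 49 or 50 (up to 0.070), and that of S100a8 without diet-alcohol 45 or 65 or DSS 48, 49 or 50 (up to 0.107). With the mitochondrial covariate Marco (0.087), S100a8 (0.091) and S100a9 (0.052) did not pass with edgeR, and with limma-voom S100a8 (0.051) and Retnlg (0.335) did not. Without a filter on low counts Marco did not pass (edgeR adjusted p = 0.104). Summed levels of the other lists overlapped between the groups, those of bile duct, endothelial, stellate, lymphoid and intestinal cells. In bulk tissue fewer hepatocytes and less RNA per hepatocyte cannot be told apart, and the part of these shifts in the results below was not tested.

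The 2 receptor genes had values of opposite sign, and neither passed the test. Nr1i2, which encodes PXR (ENSMUSG00000022809, chromosome 16, 38248323 to 38294824, GRCm38, minus strand), had 22.4, 39.0, 28.2 and 29.2 CPM in diet-alcohol libraries 35, 45, 65 and 71. It had 37.2, 46.6, 40.5 and 57.8 CPM in DSS libraries 15, 48, 49 and 50. Only diet-alcohol library 45 reached into the DSS range. The log2 fold change of Nr1i2 was -0.61 ± 0.23 (SE), with an edgeR adjusted p of 0.297.

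Nr1i3, the CAR gene (ENSMUSG00000005677, chromosome 1, 171213970 to 171220701, plus strand), was measured at 18.7, 18.1, 18.9 and 7.30 CPM in diet-alcohol libraries 35, 45, 65 and 71. The DSS libraries 15, 48, 49 and 50 had 10.2, 8.91, 5.75 and 14.2 CPM. Of the diet-alcohol libraries 3 lay within 1 CPM of each other and above every DSS library, and library 71 lay among the DSS values. Its log2 fold change was 0.69 ± 0.35 (edgeR adjusted p = 0.497), or 0.93 without library 71, where it still did not pass.

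Por (ENSMUSG00000005514, chromosome 5, 135670033 to 135735326, plus strand), the electron donor of all microsomal P450 enzymes, had 31.9, 56.7, 46.2 and 67.0 CPM in diet-alcohol libraries 35, 45, 65 and 71. It had 97.5, 98.1, 66.7 and 66.3 CPM in DSS libraries 15, 48, 49 and 50. Diet-alcohol library 71 overlapped the lowest DSS libraries, 49 and 50. The log2 fold change of Por was -0.70 ± 0.26 (edgeR adjusted p = 0.291). Under each of the 22 alternative settings Nr1i2, Nr1i3 and Por kept their direction and stayed short of the threshold.

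Within the Cyp3a family the genes parted. Cyp3a11 and Cyp3a25, hepatic enzymes that oxidise many drugs and steroids, fell, while Cyp3a13 had a positive value that did not pass. Cyp3a11 (ENSMUSG00000056035, chromosome 5, 145854426 to 145879964, minus strand) had 67.4, 36.3, 49.5 and 44.2 CPM in diet-alcohol libraries 35, 45, 65 and 71. In DSS libraries 15, 48, 49 and 50 it had 90.1, 354, 321 and 470 CPM. All diet-alcohol libraries lay below all DSS libraries, and DSS library 15 was the nearest to them. The log2 fold change of Cyp3a11 was -2.64 ± 0.44, and the gene fell (edgeR adjusted p = 0.013). The call was lost without diet-alcohol library 45 (adjusted p = 0.064), without DSS library 48 (0.052) and with the mitochondrial covariate (log2 fold change -2.25, adjusted p = 0.204), and it was kept in the other 18 alternatives at the same threshold; leaving out single libraries gave -2.96 to -2.38.

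Cyp3a25 (ENSMUSG00000029630, chromosome 5, 145977194 to 146009618, minus strand) was at 29.3, 27.5, 23.2 and 20.1 CPM in diet-alcohol libraries 35, 45, 65 and 71. The DSS values were 33.7 CPM in library 15 and 90.3, 71.8 and 81.6 CPM in libraries 48, 49 and 50. As for Cyp3a11, DSS library 15 was the lowest of its group and close to the diet-alcohol range. Cyp3a25 fell by 1.47 ± 0.30 (edgeR adjusted p = 0.035), a call that was lost without any of diet-alcohol 45, 65 and 71 or DSS 48, 49 and 50 (adjusted p up to 0.154), with limma-voom (0.069) and with the mitochondrial covariate (0.25).

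Cyp3a13 (ENSMUSG00000029727, chromosome 5, 137892932 to 137921619, minus strand), a family member that is also expressed in intestine, had 90.7, 70.2, 54.5 and 92.2 CPM in the diet-alcohol libraries 35, 45, 65 and 71. DSS libraries 15, 48, 49 and 50 had 41.0, 51.8, 50.3 and 40.4 CPM. Every diet-alcohol value was above every DSS value, with library 65 close to the highest of them, yet the log2 fold change of 0.74 ± 0.22 did not pass (edgeR adjusted p = 0.168; 0.093 in the authors' deposited table). DESeq2 on the same filtered genes, a setting added after seeing the data, gave an adjusted p of 0.038. Of the intestinal markers Cdx2 had no count in any library, and the summed level of that list was 77.1 to 137 CPM in diet-alcohol livers and 95.5 to 143 CPM in DSS livers. Most of that sum came from Fabp2 and Lgals4, and neither passed with edgeR. Fabp2 averaged 41.8 CPM in diet-alcohol livers and 36.2 CPM in DSS livers, and Lgals4 61.9 and 86.7 CPM.

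The Cyp2a pair also parted. Cyp2a4, a steroid hydroxylase that is female-biased in mouse liver, fell, and Cyp2a5, the mouse coumarin hydroxylase, did not pass. Cyp2a4 (ENSMUSG00000074254, chromosome 7, 26307169 to 26315088, plus strand) had 0, 1, 3 and 1 counts in diet-alcohol libraries 35, 45, 65 and 71, and 81, 57, 12 and 56 counts in DSS libraries 15, 48, 49 and 50. Its mean was 0.103 ± 0.153 CPM in the diet-alcohol group and 4.71 ± 2.86 CPM in the DSS group. For Cyp2a4, which fell, edgeR fitted -5.84 ± 0.93 on the log2 scale with an adjusted p of 0.010. With 5 diet-alcohol counts against 206, the ratio of the pooled normalized counts was 69.4-fold lower, with a 95% interval of 29.3 to 216 that covers counting error only. The gene entered the test through its DSS counts alone, so that a difference was built into its being tested. Its fold and the fitted value rest on so few diet-alcohol counts that neither is a bound. The call was lost without diet-alcohol 45 (adjusted p = 0.051) or DSS 50 (0.061), with limma-voom (0.145) and with the covariate (0.062). Without library 65, which held 3 of the 5 counts, the log2 fold change was -6.99.

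Cyp2a5 (ENSMUSG00000005547, chromosome 7, 26835305 to 26843548, plus strand) had 80.7 CPM in diet-alcohol library 35 and 14.3, 18.1 and 7.18 CPM in libraries 45, 65 and 71. In DSS libraries 15, 48, 49 and 50 it had 17.0, 12.3, 25.9 and 21.3 CPM. Apart from library 35 the groups covered much the same range. The log2 fold change was 0.66 ± 0.62 (edgeR adjusted p = 0.762) and turned to -0.54 without library 35 (adjusted p = 0.491). Cyp2a4 and Cyp2a5 are near-identical in sequence. How reads matching both were counted is not stated in the labels, and their single values are uncertain; this holds for the Cyp2b and Cyp3a genes too. The deposited FPKM are fragments scaled to gene length and library, and across libraries they followed TMM-normalized CPM, not total counts. Summed over the pair, FPKM was 37.8, 6.79, 8.86 and 3.39 in diet-alcohol libraries 35, 45, 65 and 71, and 11.02, 8.06, 13.0 and 14.6 in DSS libraries 15, 48, 49 and 50. With the pair counted as 1 gene the log2 fold change was 0.35 (edgeR adjusted p = 0.888).

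Both Cyp2b genes were higher in the diet-alcohol group. Cyp2b9 (ENSMUSG00000040660, chromosome 7, 26173411 to 26210661, plus strand), a female-biased P450 of mouse liver, had 5.37, 48.6, 22.4 and 4.92 CPM in diet-alcohol libraries 35, 45, 65 and 71. It had 1.43, 0.842, 2.40 and 0.745 CPM in DSS libraries 15, 48, 49 and 50. The diet-alcohol libraries differed widely among themselves, and each lay above all DSS libraries. For Cyp2b9, which rose, edgeR fitted 3.91 ± 0.77 on the log2 scale with an adjusted p of 0.032, and 2.99 with an adjusted p of 0.078 when library 45 was left out. The call was kept only without library 71 when single libraries were left out (adjusted p up to 0.153), and it was lost with limma-voom (0.44), without a filter on low counts (0.231) and with the covariate (0.124).

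Cyp2b10 (ENSMUSG00000030483, chromosome 7, 25897620 to 25926624, plus strand), the classical CAR target, had 33, 53, 7 and 16 counts in diet-alcohol libraries 35, 45, 65 and 71, or 1.85, 2.18, 0.773 and 0.635 CPM. All 4 DSS libraries had 0 counts. Against a floor of 3 counts over the whole DSS group, or 0.0661 CPM, the pooled level of Cyp2b10 was at least 21.6-fold higher in the diet-alcohol group. The filter on low counts left the gene out of the test; without that filter it passed (edgeR adjusted p = 0.014), and in the authors' deposited table its log2 fold change was 6.30 with an adjusted p of 0.00033. Their table lists an adjusted p under 0.05 for 5 of the 10 genes, those 4 that passed here and Cyp2b10, against 2.08% of all genes with an adjusted p in it. In fits without diet-alcohol 65 or 1 of the DSS libraries it entered the test and did not pass (edgeR adjusted p from 0.076 to 0.17).

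**Figure D2:**
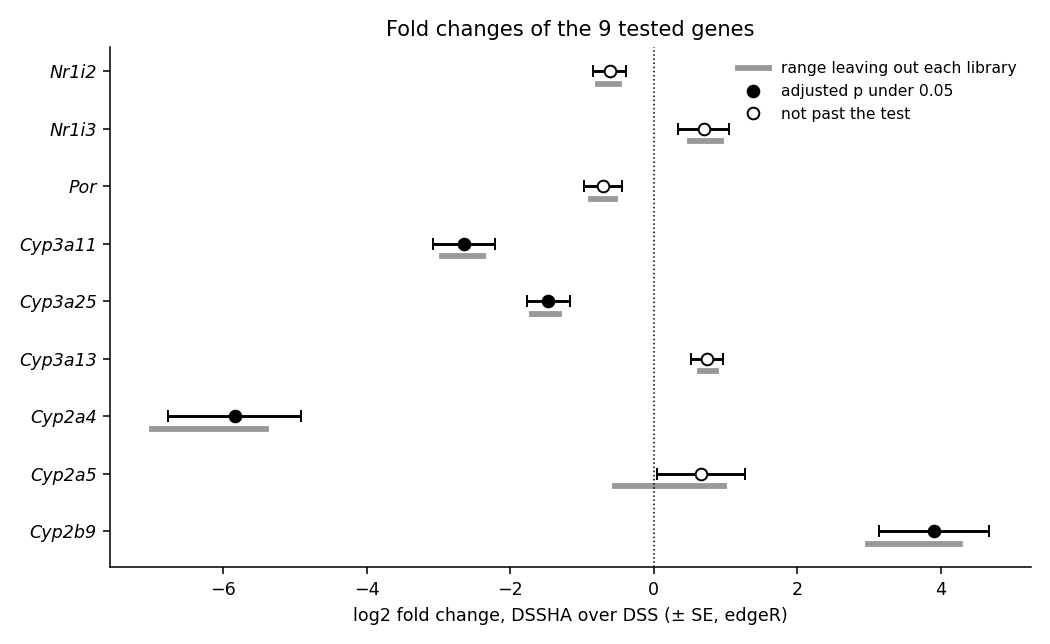
Log2 fold change, diet-alcohol over DSS, of the 9 tested genes (points ± SE from edgeR; filled, adjusted p under 0.05) with the range of values when each library is left out (grey). The range for Cyp2a5 crosses 0, from -0.54 to 0.98, and those of the other 8 genes stay on 1 side.

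The make-up of each family within a library was compared next, from the deposited FPKM, which divide by gene length. Cyp3a11 made up 22.8, 16.2, 24.7 and 17.5% of the summed FPKM of Cyp3a11, Cyp3a13 and Cyp3a25 in diet-alcohol libraries 35, 45, 65 and 71, and 37.1, 53.3, 55.1 and 63.6% in DSS libraries 15, 48, 49 and 50. The means were 20.3% ± 4.12 in diet-alcohol livers and 52.2% ± 11.1 in DSS livers (SD, n = 4 each), and all diet-alcohol shares lay below all DSS shares (exact two-sided permutation p = 0.0286, the smallest that 70 assignments can give). Cyp2a5 made up 97.9 to 100% of the Cyp2a pair in diet-alcohol libraries and 68.2 to 93.8% in DSS libraries, at the same exact p. That share restates the near absence of Cyp2a4 in the diet-alcohol group (5 counts against 206) and is no separate result. It also rests on how reads matching both genes were counted, which is not stated. Cyp2b10 made up 23.4, 3.84, 2.97 and 10.3% of the Cyp2b pair in diet-alcohol libraries 35, 45, 65 and 71, against 0% in every DSS library, where 60 counts in all came from Cyp2b9. With 5 to 23 such counts in a DSS library, a share as low as those of libraries 45 and 65 was not detectable at this depth, and no test is read from this share. Cyp3a13 had the highest FPKM of the 3 Cyp3a genes in every diet-alcohol library, and Cyp3a11 had it in every DSS library.

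Levels of the enzymes were also set against those of their receptors and of Por within each library. The log2 CPM of Cyp3a11 minus that of Nr1i2 averaged 0.72 ± 0.70 in the diet-alcohol group and 2.55 ± 0.85 in the DSS group (exact permutation p = 0.057, n = 4 each). DSS library 15, at 1.27, lay below diet-alcohol library 35, at 1.58, and without library 15 the difference of -1.83 became -2.25. Por minus Cyp3a11 averaged 0.02 ± 0.80 in diet-alcohol livers and -1.71 ± 1.28 in DSS livers, with overlap (exact permutation p = 0.086). Cyp2b10 minus Nr1i3 averaged -3.48 ± 0.63 in diet-alcohol livers and -6.16 ± 0.53 in DSS livers, where the DSS values rest on the prior count of 2 that stands in for 0 counts, so that no test is read from it either. The exact permutation p-values of these 3 differences and the 3 shares were adjusted together (Benjamini-Hochberg). Those of the Cyp3a11 and Cyp2a5 shares became 0.043, that of Cyp3a11 to Nr1i2 became 0.069 and that of Por to Cyp3a11 stayed at 0.086. The adjustment includes the 2 tests on Cyp2b10 that are not read, each at an exact p of 0.0286. Their presence lowers the adjusted p of the Cyp3a11 and Cyp2a5 shares, so no call is read from 0.043.

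**Figure D3:**
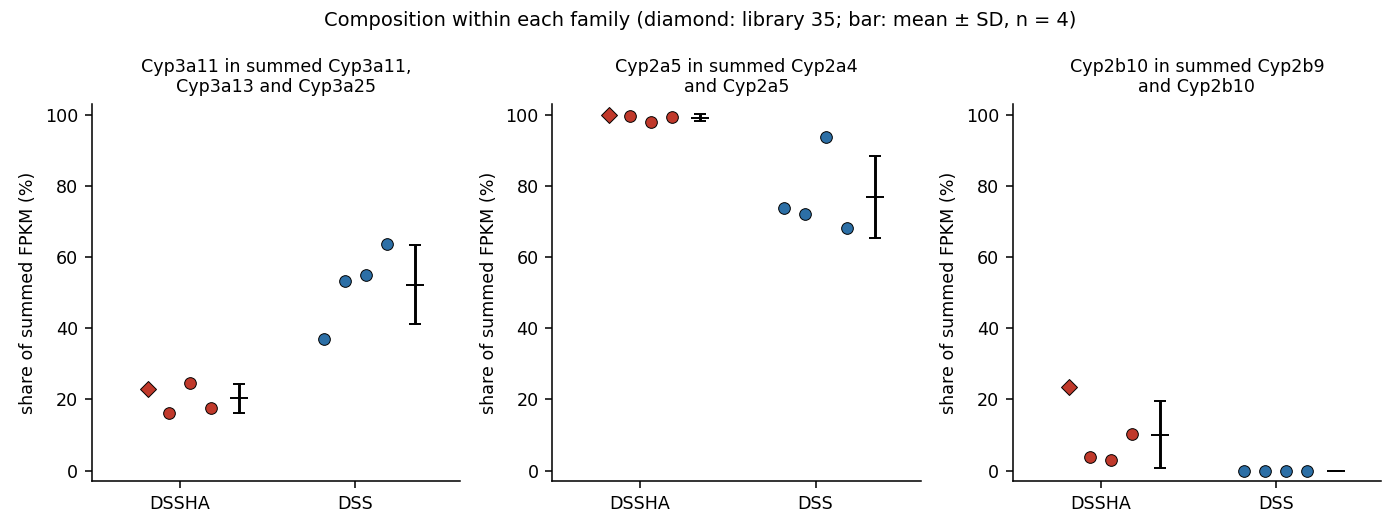
Share of the summed FPKM of each family taken by Cyp3a11 (left), Cyp2a5 (middle) and Cyp2b10 (right), in percent, for every library (diamond: library 35; bars: mean ± SD, n = 4 each), with the diet-alcohol group (DSSHA) left of the DSS group. The Cyp3a11 share is below 25% in the diet-alcohol libraries and above 37% in the DSS libraries.

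Per unit of gene length, the order of the 10 genes differed between the groups. In diet-alcohol livers Cyp3a13 had the highest mean, at 25.4 ± 5.73 FPKM, followed by Cyp2a5, Por, Cyp3a25, Nr1i2, Cyp2b9 and Cyp3a11 with means from 14.2 to 9.48 FPKM, and the ranges overlapped from each gene to the next, Cyp3a13 included. The place of Cyp2a5 rested on library 35, at 37.8 FPKM, above Cyp3a13 there (29.8 FPKM); in libraries 45, 65 and 71 Cyp2a5 had 6.77, 8.67 and 3.37 FPKM, each below Cyp3a11 in the same library. Below them Nr1i3 (3.50 ± 1.26 FPKM), Cyp2b10 (0.629 ± 0.356 FPKM) and Cyp2a4 (0.0587 ± 0.0877 FPKM) were each separated from the gene above. In DSS livers Cyp3a11 led with 59.1 ± 30.2 FPKM, then Cyp3a25 with 32.5 ± 11.6, Por with 20.0 ± 4.55, Nr1i2 with 17.4 ± 3.33 and Cyp3a13 with 15.2 ± 1.99 FPKM, again with overlap between neighbours. Cyp2a5 (9.02 ± 2.71 FPKM) lay below these 5, and Cyp2a4 (2.65 ± 1.59) and Nr1i3 (2.16 ± 0.76) were not separated from each other. Cyp2b9 averaged 0.707 ± 0.396 FPKM there and Cyp2b10 was listed at 0.

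The other members of these P450 families are 11 genes, of which 3 could be tested and none passed (edgeR; 1 at an unadjusted p under 0.05; 0 by DESeq2 and by limma-voom). Cyp2a12, an abundant hepatic gene, had a log2 fold change of -0.57 ± 0.30 and Cyp3a59 one of -1.0995 ± 0.45. Cyp2a22 was at 1.52 ± 0.77, with 23.0, 11.5, 8.50 and 1.35 CPM in diet-alcohol libraries 35, 45, 65 and 71 against 1.26 to 9.68 CPM in DSS livers. Cyp2b13, a female-biased relative of Cyp2b9, had 14 counts, all of them in diet-alcohol library 45, where Cyp2b9 was also highest. Of the rest, Cyp3a16, Cyp3a41a, Cyp3a41b, Cyp3a57 and Cyp2b19 had no count in any library, Cyp3a44 had 2 and Cyp2b23 had 2.

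On chromosome 7 the Cyp2a and Cyp2b genes stand in 1 cluster with Cyp2f2, Cyp2g1, Cyp2s1 and Cyp2t4, 13 genes over 1356 kb. Of the 6 that could be tested, Cyp2b9 rose, Cyp2a4 and Cyp2f2 fell, and Cyp2a5, Cyp2a12 and Cyp2a22 did not pass. Cyp2b9 and Cyp2a4, which moved in opposite directions, stand next to each other among the Cyp genes of this cluster. Cyp2f2, a periportal hepatocyte P450, had 10.8, 34.5, 31.4 and 33.97 CPM in diet-alcohol libraries 35, 45, 65 and 71 and 104 to 223 CPM in DSS libraries, and it fell by 2.44 ± 0.38 (edgeR adjusted p = 0.0096; 0.076 with the mitochondrial covariate). Cyp3a11 and Cyp3a25 lie next to each other on chromosome 5 and both fell, whereas Cyp3a13 lies apart on the same chromosome. Among the 49 tested Cyp genes outside the 10, 1 rose and 5 fell, with a median log2 fold change of -0.55, against -0.01 for all tested genes. The median of the 9 tested genes described here was -0.61. That set includes Nr1i2, Nr1i3 and Por, which are not P450 genes, so the medians are of unlike sets.

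A list of 25 further targets of PXR and CAR, of which 22 were tested, had 1 gene that rose, 2 that fell and 19 that did not pass (median log2 fold change -0.58; 17 of 22 negative; 9 at an unadjusted p under 0.05; 6 by DESeq2; 3 by limma-voom). Ugt1a9, a glucuronosyltransferase, had 7.05, 2.14, 3.76 and 3.69 CPM in diet-alcohol libraries 35, 45, 65 and 71 and 10.5, 31.9, 28.9 and 26.8 CPM in DSS libraries 15, 48, 49 and 50. It fell by 2.56 ± 0.43 (edgeR adjusted p = 0.014), and as with Cyp3a11 the lowest DSS value was that of library 15. Ces2a, a carboxylesterase, fell by 1.26 ± 0.24, to 56.6 ± 10.2 CPM in diet-alcohol livers against 135 ± 32.3 CPM in DSS livers (edgeR adjusted p = 0.030). Gstm2, a glutathione transferase, rose by 1.52 ± 0.25, to 40.7 ± 12.1 CPM in diet-alcohol livers against 14.2 ± 1.27 CPM in DSS livers (edgeR adjusted p = 0.014). Single calls were lost without DSS 48 or 49 for Ugt1a9 (edgeR adjusted p up to 0.060), without diet-alcohol 45 or DSS 48, 49 or 50 for Gstm2 (up to 0.071), and without diet-alcohol 45 or 71 or DSS 48, 49 or 50 for Ces2a (up to 0.128). Gstm genes resemble each other closely, so a count for any 1 of them is uncertain. How reads matching more than 1 Ugt1a gene were counted is not stated either. Ugt1a1 had a log2 fold change of -0.53 ± 0.38 and did not pass (edgeR adjusted p = 0.672).

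The count depended on library 35. Without it 1 of the 22 targets rose and 9 fell, and the median was -1.08. The count over all genes grew as well in that fit, to 308 of 12097 tested genes or 2.55%, against 1.26% with all 8 libraries. The 7 that joined Ugt1a9 and Ces2a were Cyp2c29 (-1.48), Cyp1a2 (-2.18), Gstm1 (-1.24), Gstt1 (-0.91), Ces2c (-2.98), Papss2 (-1.13) and Alas1 (-2.08, edgeR adjusted p = 0.0013). Alas1, which makes the first precursor of the haem that P450 enzymes carry, had 211, 96.4, 71.2 and 61.9 CPM in diet-alcohol libraries 35, 45, 65 and 71 and 501, 305, 237 and 254 CPM in DSS libraries 15, 48, 49 and 50. All of its diet-alcohol values lay below all DSS values, and with all 8 libraries its log2 fold change was -1.56 ± 0.41 (edgeR adjusted p = 0.110). With the mitochondrial covariate 0 of the 22 targets passed (6 at an unadjusted p under 0.05).

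Genes that act with the receptors did not pass with edgeR. Of 17 partners and coregulators 0 passed (edgeR; 2 at an unadjusted p under 0.05; 0 by DESeq2 without the filter on low counts and 1 with it; 0 by limma-voom), with a median of -0.15. Rxra, the DNA-binding partner of both receptors, averaged 179 ± 31.0 CPM in diet-alcohol livers and 169 ± 25.1 CPM in DSS livers. Hnf4a, which maintains hepatocyte genes, stood at -0.38 ± 0.24 and Cebpa, another hepatocyte factor, at -0.92 ± 0.28 (edgeR adjusted p = 0.171). Of 10 genes that hold CAR in the cytosol or release it, such as Hsp90aa1 and Dnajc7, 0 passed (1 at an unadjusted p under 0.05; 0 by the other tools; median 0.00).

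None of 5 electron partners of the P450 enzymes passed with edgeR (3 at an unadjusted p under 0.05; 1 by DESeq2; 0 by limma-voom). Cyb5r3, the cytochrome b5 reductase, was at -0.73 ± 0.19 with 83.6 ± 10.2 CPM in diet-alcohol livers and 139 ± 11.9 CPM in DSS livers (edgeR adjusted p = 0.107), a value near that of Por. Among 8 regulators known for Cyp2a5, Ahr, the aryl hydrocarbon receptor, had 13.6 ± 3.35 CPM in diet-alcohol livers and 5.29 ± 1.64 CPM in DSS livers. Its log2 fold change of 1.34 ± 0.31 did not pass (edgeR adjusted p = 0.065), and it passed without library 35. The other 7 did not pass in either fit. Of the 8, 1 had an unadjusted p under 0.05 with edgeR, 1 passed with DESeq2 and 0 with limma-voom, all with the 8 libraries.

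**Figure D4:**
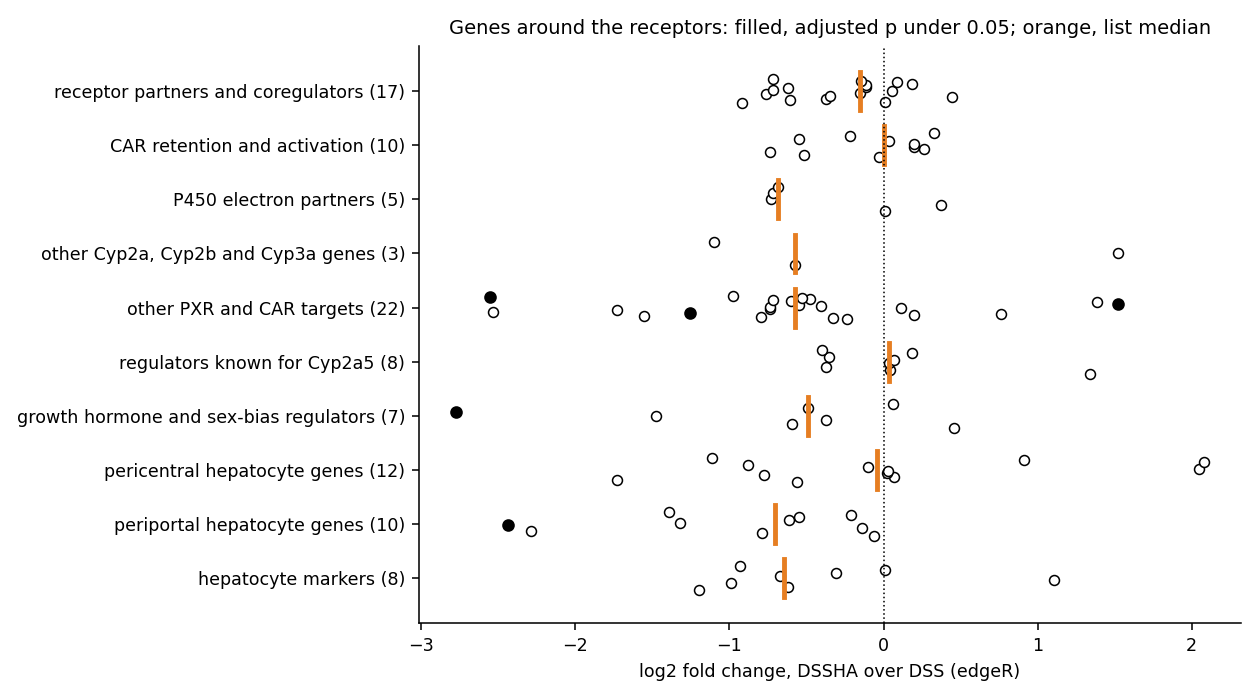
Log2 fold change (diet-alcohol over DSS) of the tested genes in 10 lists around the receptors, with the number tested in brackets; each point is a gene (filled, adjusted p under 0.05 with edgeR) and the orange line the list's median. The further PXR and CAR targets spread from -2.56 to 1.52, while the receptor partners lie between -0.92 and 0.45.

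Zonation and sex bias were described because several of the 10 genes are zoned or sex-biased in mouse liver. Of 12 pericentral genes 0 passed (edgeR; 6 at an unadjusted p under 0.05; 1 by DESeq2 without the filter on low counts and 4 with it; 0 by limma-voom), with a median of -0.04. Their values were mixed, 6 positive and 6 negative, from -1.73 for Cyp1a2 to 2.08 for Rhbg. Of 10 periportal genes 1 fell, Cyp2f2, and all 10 had negative values (median -0.70; 5 at an unadjusted p under 0.05; 5 by DESeq2; 1 by limma-voom). Without library 35, 3 of them fell, Cyp2f2, Gls2 and Cdh1, and with the mitochondrial covariate 0 passed (edgeR; 4 at an unadjusted p under 0.05). Among growth hormone and sex-bias regulators 1 of 7 tested fell. That gene was Socs2, a target and feedback inhibitor of growth hormone signalling, which had 4.03, 3.99, 13.0 and 4.05 CPM in diet-alcohol libraries 35, 45, 65 and 71 and 30.5 to 53.2 CPM in DSS libraries (log2 fold change -2.77 ± 0.41, edgeR adjusted p = 0.0076). Of 12 female-biased genes other than Cyp2a4 and Cyp2b9, 2 were tested and neither passed (2 at an unadjusted p under 0.05; 0 by the other tools). Acot3, an acyl-CoA thioesterase, stood at -1.81 ± 0.76 (edgeR adjusted p = 0.376) and passed without library 35.

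For each tested gene, the genes with the most similar profile over the 8 libraries were found by the root mean square difference of centred log2 CPM among 6547 candidates. Cyp3a11 was nearest to Ugt1a9, at a difference of 0.33, followed by Ppp1r3b (0.46) and Tsku (0.47), and the profile of Cyp3a11 itself had an SD of 1.501. Cyp3a25 was nearest to Aadac (0.21), Alb (0.27) and Ugt2b36 (0.29), where Alb is the albumin gene. Cyp2b9 was nearest to Mt1 (0.79), A2ml1 (0.92) and Orm1 (0.93), and Cyp2a4 to Cib3 (0.61), Serpina4-ps1 (0.84) and Slco1a1 (0.91). With 0, 1, 3 and 1 counts, the diet-alcohol values of Cyp2a4 rest largely on the prior count of 2, and so do its distances. Cyp2a5 was nearest to Sult1a1 (0.45), Paxip1 (0.48) and Pdcd5-ps (0.48). For the other 4 tested genes the nearest profiles were Ddx47, Ndufs3 and Senp5 for Nr1i2 (0.14 to 0.16), Ttc7, Rbm5 and Aox1 for Nr1i3 (0.25 to 0.26), Rlim, Abhd5 and Mif for Por (0.15 to 0.18), and Itch and Bnip2 for Cyp3a13 (0.09 and 0.15).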

How the data were processed

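Liver RNA was sequenced as mRNA libraries from 8 samples. The deposited table gives raw counts per gene and library, per the file headers; GRCm38 and mm10 are the builds in the submitters' processing notes. Which aligner, counter and strand setting were used is not given in the sources used here. FPKM were deposited by the authors and used for levels between genes. The log2 fold change, p-value and adjusted p-value of the authors' deposited table come from their own comparison; its normalized group means, a count signal by the authors, were not used.

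The members and lists were chosen with earlier results of these data known. Genes were filtered with filterByExpr, TMM-normalized and tested with edgeR 4.0.16 (robust quasi-likelihood F test, R 4.3.3; Benjamini-Hochberg over 11729 genes, threshold 0.05). Total counts were 12502300 to 16967839 per library; intervals and floors cover counting error only. CPM are TMM-normalized; log2 CPM have a prior count of 2. Shares and log2 ratios were compared with exact two-sided permutation tests over 70 assignments. Alternatives used DESeq2 1.42.0 (without the filter on low counts and, added after seeing the data, with it), limma 3.58.1 (voom, and log2(FPKM + 1) or log2(FPKM + 0.1)), other normalizations and filters, a threshold of 0.01, mitochondrial genes left out, the mitochondrial share as a covariate, near-identical pairs summed, and each library left out. The fit was tested on simulated data. The text names the 10 genes, up to 3 called genes per list with the smallest p, and the 3 nearest profiles per gene (mean of at least 5 CPM); other genes were named after their values were seen, and some results under this rule are not reported here.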

Additional observations from a re-analysis of the deposited data

Results flagged for a closer look

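A single library far from the other 3 of its group was looked for in 30 sets of 4 values, and 4 were found; chance marks about 1 in 20. Nr1i3 in diet-alcohol library 71, at 7.30 CPM, lay far below the other 3 (18.1 to 18.9 CPM). Cyp2a5 in diet-alcohol library 35, at 80.7 CPM, lay far above the other 3 (7.18 to 18.1 CPM). Cyp2a4 in diet-alcohol library 65, at 0.331 CPM or 3 counts, lay above the other 3 (0 to 0.0412 CPM), a gap of 2 counts. The log2 ratio of Cyp3a11 to Nr1i2 in DSS library 15, at 1.27, lay below the other 3 (2.92 to 3.02).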

How the results depend on the processing

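No paired analysis was possible because no library number occurs in both groups. Of 197 alternative values of the 9 tested genes, 161 kept their direction and side of the threshold, 33 lost a call, 1 gained a call (Cyp3a13 with DESeq2 on the same genes) and 2 reversed: Cyp2a5 without library 35 (-0.54; up to 0.98 without other libraries) and Cyp2a4 summed with Cyp2a5 (0.35). Of the 9, the number called was 1 with limma-voom, 2 with limma on log2(FPKM + 1) and on log2(FPKM + 0.1), 0 at the threshold of 0.01, 0 with the mitochondrial covariate, and 0 to 3 when 1 library was left out. The count over all genes, 148, became 484 with DESeq2 on the same genes (added after seeing the data), 431 with DESeq2 and 249 with edgeR when the filter on low counts was dropped, 61 at the threshold of 0.01, 55 with the covariate and 58 to 308 without 1 library. The covariate fit has 1 degree of freedom less. Without 1 library the difference, in percentage points, ran from 19.3 to 27.9 for the Cyp2a5 share of Cyp2a4 and Cyp2a5, from 5.70 to 12.5 for the Cyp2b10 share of Cyp2b9 and Cyp2b10, and from -37.0 to -28.2 for the Cyp3a11 share of Cyp3a11, Cyp3a13 and Cyp3a25. The log2 ratio of Cyp2b10 to Nr1i3 then ran from 2.48 to 2.99 and that of Cyp3a11 to Nr1i2 from -2.25 to -1.55. In these smaller designs adjusted p mostly missed 0.05, and the smallest exact p is 0.0286. Among the nearest profiles of Cyp2a5, Sult1a1 (-0.052; up to 1.103 without other libraries) and Pdcd5-ps (-0.18; up to 0.62) reversed without library 35. Paxip1, at 0.05, ran from -0.59 (library 35) to 0.28 when 1 library was left out, and reversed with limma-voom (-0.20) and on log2(FPKM + 1) (-0.013) or log2(FPKM + 0.1) (-0.11). The causes were not tested. Depth limits Cyp2a4 and Cyp2b10, where 3 counts in a library are 0.119 to 0.447 CPM.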
